A study of Arabidopsis thaliana with 12 samples.

Results

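Heat and high light were set directly against each other in leaves of Col-0, a wild type of thale cress (Arabidopsis thaliana). The 2 groups compared were 3 libraries of plants moved to 42 °C (heat) and 3 libraries of plants given light of 600 µmol m-2 s-1 (high light), each for 7 h. All plants were 30 days old and came from peat pellets kept at 23 °C, where light of 50 µmol m-2 s-1 was on for 12 h daily. A further 3 untreated libraries (control) and 3 libraries given both stresses together (combination) complete the series of 12 and serve here to place the levels. The labels do not state the light used during heat or the temperature used during high light, so these could not be compared. Members were all genes with a mean normalised read count of at least 10 over the 12 libraries, which gave 19309 of the 32833 listed loci.

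Leaves meet these stresses through partly separate routes. Heat unfolds proteins, and heat shock factors then bind heat shock elements in promoters and switch on chaperones that keep or return proteins to their folded state. Excess light overloads the photosystems, and chloroplast and photoreceptor signals, with HY5 and its relatives among the regulators, remodel the antenna and switch on early light-induced proteins and flavonoids, which absorb light and scavenge oxidants.

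Reads per library, recovered from the normalised values, numbered 33626361 to 36768410 in high light and 34688170 to 36938786 in heat. Pearson's r across genes lay between 0.984 and 0.986 within high light, 0.936 and 0.973 within heat and 0.835 and 0.908 between the groups. Each r is taken over genes, and genes are no independent replicates. The median SD within a group, on the log2 scale, was 0.325 in heat and 0.185 in high light, and heat library 1 held fewer heat shock protein transcripts than heat 2 and 3. Whether the 3 libraries of a group hold different plants is not stated in the labels, and p-values therefore rest on a spread between libraries that may be technical. Fewer cells of a type and less RNA per cell cannot be told apart in whole leaves. The leaf label was checked on RBCS1A, a small subunit of Rubisco, at 193165, 232849.9 and 233218 in heat and at 456754, 439525 and 593233 in high light, and on 4 flower genes, whose summed count was 13.5 to 29.6 in heat and 9.74 to 21.4 in high light.

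Of the 19309 genes, 4738 (24.5%) were higher in heat and 4813 (24.9%) were higher in high light, so that 49.5% differed (limma, Benjamini-Hochberg adjusted p under 0.05, two-sided). Both shares are the background for the counts of each gene list below. The lists were chosen with earlier results of these data known, so that agreement of all members of a list is a description, not a test. Changes are heat minus high light in log2(normalised count + 1), given ± SE, so that a positive value is higher in heat. These changes can be smaller or larger than in a count test, both for genes with few reads in a group and for genes with many. PAP2 was -9.16 here and -10.68 in DESeq2, and HSP22.0 was 13.53 here and 12.7 in DESeq2. Among genes with more reads, HSP70B was 6.62 here and 9.24 in DESeq2, HSP101 4.80 and 5.86, and MBF1C 2.64 and 3.36. RVE1 was 3.00 here and 4.98 in DESeq2, and ELIP1 was -6.66 and -5.58. Where 3 values are given for a group, they are normalised read counts of libraries 1, 2 and 3 in that order. The median change over all genes was 0.01 and the median absolute change of called genes was 1.13. A change of at least 3 was reached by 380 genes higher in heat and 269 higher in high light, and a change of at least 5 by 80 and 44. The 3 heat and 3 high light libraries did not overlap for 58.9% of all genes. Of the 9758 genes not called, 5998 had a 95% interval of the difference within 2-fold either way, and for the other 3760 the interval reached a 2-fold difference.

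**Figure D1:**
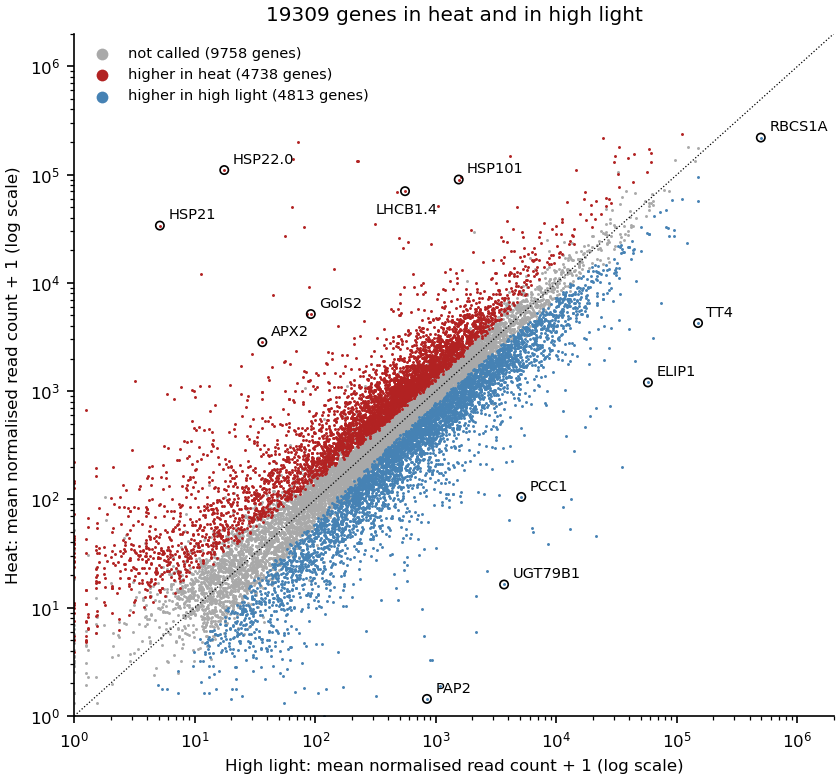
Mean normalised read count + 1 of each gene in high light (horizontal, log scale) and heat (vertical, log scale), 3 libraries each, with the dotted line marking equal levels. Red points are the 4738 genes higher in heat, blue points the 4813 higher in high light and grey points the 9758 not called. The circled heat shock genes lie far above the line and PAP2, UGT79B1, TT4 and ELIP1 far below it.

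Heat shock proteins led the genes higher in heat, and flavonoid genes led those higher in high light. Among called genes with a RefSeq symbol, no overlap and a mean of 50 or more where the gene was higher, the 10 with the largest changes towards heat were HSP22.0 (13.53), HSP21 (13.36), HSP18.2 (11.56), HSP17.4 (10.24), HSP23.6-MITO (9.83), HSP17.6A (9.23), HSP17.6II (8.49), BBX17 (7.23), HSA32 (7.16) and HA9 (7.10). All but BBX17, a B-box protein, and HA9, a plasma membrane proton pump, are heat shock proteins or, for HSA32, a heat-stress-associated protein. Loci without a symbol were not ranked, and some with large changes are not described as heat shock proteins. The uncharacterized AT1G58120 was at 375, 1143 and 466 in heat and at 0, 0.765 and 0 in high light, a change of 8.92 ± 0.80 (adjusted p = 6.67e-06). AT1G21940 was at 7.12 ± 0.76 (6.43 to 8.29 with 1 library left out) and AT1G72660 at 6.89 ± 0.61 (6.36 to 7.56). The 10 with the largest changes towards high light were PAP2 (-9.16), UGT79B1 (-8.77), TT19 (-8.50), UGT78D3 (-8.44), MYB12 (-8.08), GA2OX8 (-8.06), 5MAT (-8.05), TT7 (-7.75), MYB11 (-7.69) and FLS1 (-7.69). Of these, 9 belong to flavonoid synthesis, its regulation or the transport of its products, and GA2OX8 inactivates gibberellins. BBX17 (AT1G49130) was at 918, 1397 and 946 in heat and at 3.91, 10.7 and 5.31 in high light, and GA2OX8 (AT4G21200) was at 1.31, 2.69 and 2.86 in heat and at 1152, 528 and 1024 in high light, without overlap in either case. The fold of MYB11 rests on 2 reads over the 3 heat libraries and was 582 (95% interval 161 to 4815), an interval for counting error only. For the genes whose change is given, the value without a library that moved a called change by over 1.5 times, or that altered the call, follows with the gene's family.

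**Figure D2:**
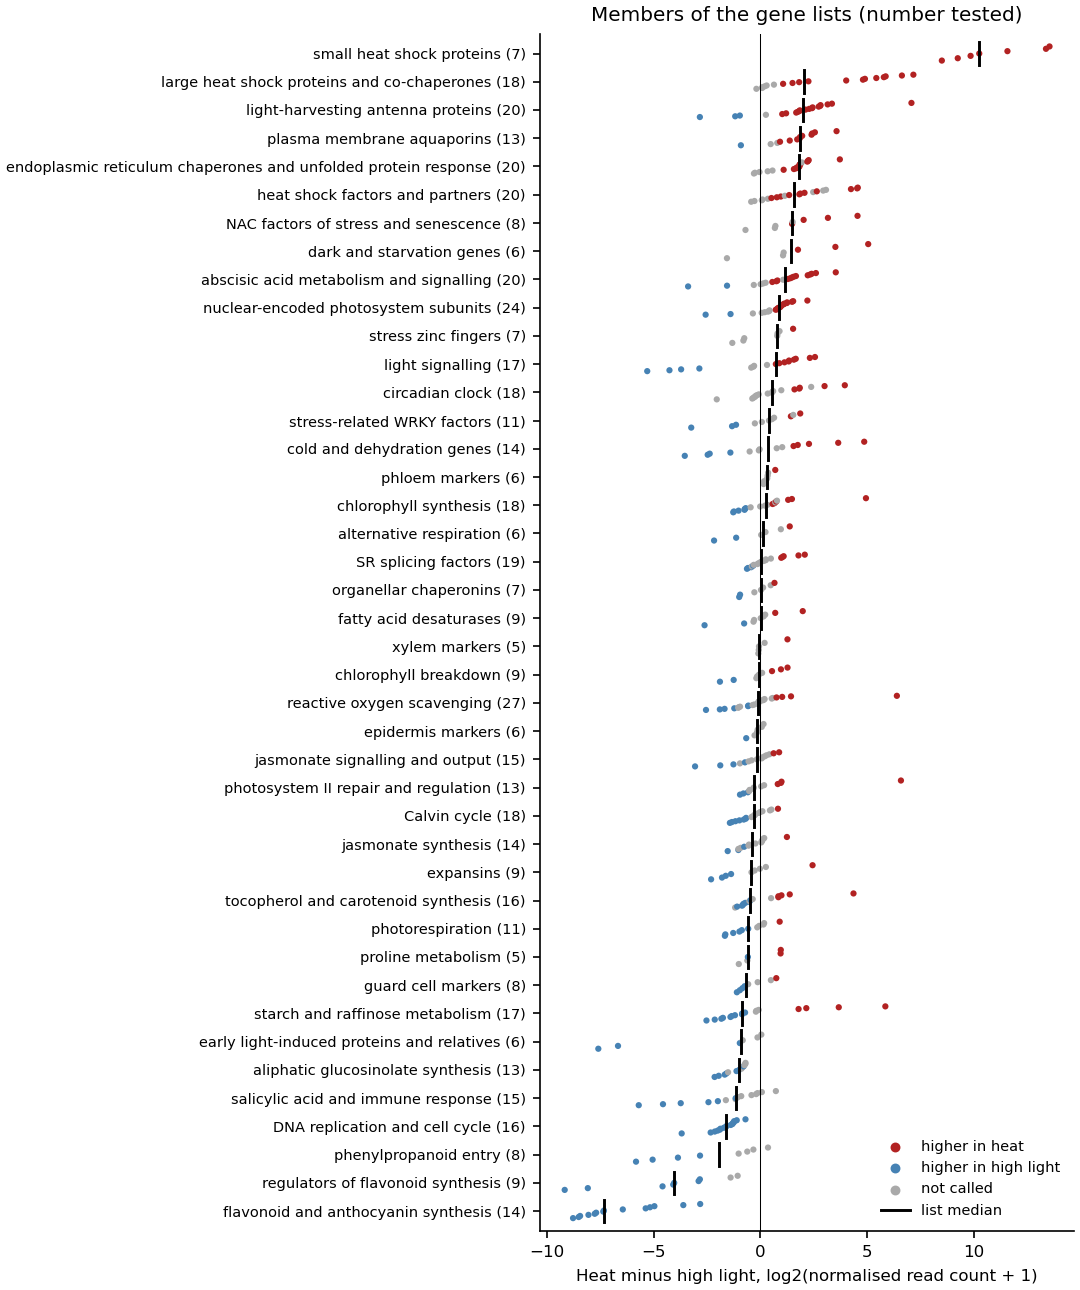
Change of each tested member (point) of the gene lists, as heat minus high light in log2(normalised read count + 1) on the horizontal axis, with 1 row per list and the number tested in brackets. Red points were higher in heat, blue points higher in high light and grey points not called, and the black bar is the list's median. Small heat shock proteins lie at the right and flavonoid synthesis genes at the left, and many rows hold both colours.

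Small heat shock proteins bind unfolding proteins and hold them for refolding, and all 7 listed members were higher in heat, by 8.49 to 13.53 (24.5% of all genes were higher in heat). HSP18.2 (AT5G59720), a cytosolic member, was at 76354, 224641 and 301579 in heat and at 28.2, 45.9 and 137 in high light. Every heat library stood above every high light library, a difference of 11.56 ± 0.59 (adjusted p = 4.2e-07). HSP22.0 (AT4G10250), a member of the endomembrane system, was at 35017, 120796 and 174780.1 in heat and at 0.783, 4.59 and 44.3 in high light. They did not overlap, a difference of 13.53 ± 1.19 (adjusted p = 6.4e-06). HSP21 (AT4G27670), which acts in the chloroplast, was at 7186, 54293 and 39924 in heat and at 0, 0 and 12.4 in high light, so that 2 high light libraries held no read of it, and it differed by 13.36 ± 1.07 (adjusted p = 3.73e-06). HSP23.6-MITO (AT4G25200), a mitochondrial member, was at 8069, 47775 and 95218 in heat and at 4.70, 112 and 74.4 in high light and differed by 9.83 ± 1.24 (adjusted p = 6.16e-05). HSP17.4, HSP17.6A and HSP17.6II, all cytosolic, differed by 10.24 ± 1.27, 9.23 ± 1.39 and 8.49 ± 1.18, again without overlap, and the latter pair are close neighbours in sequence that may share reads. Transcripts of the 7 genes together took 0.555% to 2.31% of the reads in heat and 0.000170% to 0.00199% in high light, with the lowest heat value in library 1. Outside the list, 4 loci that RefSeq describes as HSP20-like chaperones were also higher in heat, AT1G53540 by 10.80 ± 1.38, AT2G29500 by 9.33 ± 0.60, AT1G52560 by 8.11 ± 0.73 and AT1G07400 by 6.77 ± 1.48, and they were chosen after their values were seen. HSP18.2 moved to 12.15 to 12.19 without heat 1 or high light 3, and HSP22.0 moved to 12.47 without high light 1 and to 14.21 to 14.81 without heat 1 or high light 3. HSP21 moved to 12.74 without high light 1 or high light 2 and to 14.26 to 14.61 without heat 1 or high light 3, and HSP23.6-MITO moved to 8.50 to 9.07 without high light 1 or heat 3 and to 10.65 to 10.85 without high light 2 or heat 1. HSP17.4 moved to 8.90 to 9.45 without high light 1 or heat 3 and to 10.88 to 11.29 without high light 2, high light 3 or heat 1, and HSP17.6A moved to 8.09 to 8.23 without high light 1 or heat 3 and to 10.50 to 10.53 without heat 1 or high light 3. HSP17.6II moved to 7.46 to 7.49 without high light 1 or heat 3 and to 9.35 to 9.69 without high light 3 or heat 1, and AT1G53540 moved to 9.67 to 10.01 without heat 3 or high light 1 and to 11.88 to 12.28 without high light 3 or heat 1. AT2G29500 moved to 8.53 without high light 1 and to 9.92 without heat 1, and AT1G52560 moved to 7.40 without heat 3 and to 9.06 without heat 1. AT1G07400 moved to 5.32 to 5.45 without heat 3 or high light 1 and to 8.001 to 8.55 without high light 3 or heat 1.

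Among the large heat shock proteins and their partners, 12 of 18 were higher in heat and 0 higher in high light (median 2.03). HSP101 (AT1G74310), the cytosolic ClpB that pulls proteins out of aggregates, was at 2325, 36624 and 231174 in heat and at 259, 1058 and 3323 in high light. Heat library 1 was within the range of the high light libraries, and the difference was 4.80 ± 1.28 (adjusted p = 0.00797). HSP70B (AT1G16030), a heat-inducible Hsp70 of the cytosol, was at 561, 38834 and 360302 in heat and at 124, 189 and 349 in high light and spanned a wide range within heat, without overlap, with a difference of 6.62 ± 1.58 (adjusted p = 0.00432). HSA32 (AT4G21320), which prolongs acquired heat tolerance, was at 2239, 11639 and 9381 in heat and at 32.9, 57.4 and 41.6 in high light, a difference of 7.16 ± 0.52 (adjusted p = 2.22e-06) with no overlap. ROF2 (AT5G48570), a peptidyl-prolyl isomerase that binds HSP90, was at 13549, 67824 and 72594 in heat and at 152, 1409 and 1580.5 in high light, and differed by 5.86 ± 0.82 (adjusted p = 0.00013). The inducible HSP90.1 differed by 5.77 ± 1.04 and the co-chaperone HOP3 by 5.42 ± 0.92. Of the 6 members that did not pass, HSC70-1 and HSP81-2 are constitutive and HSP90.5 acts in plastids, with HSC70-1 at 0.20 ± 0.46, HSP81-2 at 0.09 ± 0.67 and HSP90.5 at -0.19 ± 0.25. Of the 7 organellar chaperonins, the plastid CPN60B was lower in heat at -0.99 ± 0.20 (adjusted p = 0.00157) and mitochondrial HSP60-2 likewise at -0.95 ± 0.17 (adjusted p = 0.00077), while HSP60-3A was higher at 0.66 ± 0.22 (adjusted p = 0.0256). CPN60A (AT2G28000), the plastid partner of CPN60B, was at 48111, 90125 and 58609.8 in heat and at 55358, 72521 and 59810.2 in high light, and overlapped between the groups (change 0.03 ± 0.27). HSP101 moved to 3.25 to 3.85 without heat 3 or high light 1 and to 5.69 to 6.57 without high light 3 or heat 1, and HSP70B moved to 4.53 without heat 3 and to 9.19 without heat 1. HSA32 moved to 7.90 without heat 1, and ROF2 moved to 4.76 without high light 1 and to 6.45 to 6.65 without high light 3 or heat 1. HSP90.1 moved to 4.52 to 4.80 without high light 1 or heat 3 and to 6.40 to 6.93 without high light 2, high light 3 or heat 1, and HOP3 moved to 4.23 to 4.65 without high light 1 or heat 3 and to 6.13 to 6.35 without high light 3 or heat 1. HSP60-3A was no longer called without heat 2, heat 3, high light 1 or high light 3 (0.53 to 0.66, adjusted p = 0.0634 to 0.103). HSC70-1 passed without heat 1 (0.84, adjusted p = 0.0284).

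Heat shock factors switch on the chaperone genes, and among the factors and their partners 11 of 20 were higher in heat and 0 higher in high light (median 1.58). HSFA3 (AT5G03720) was at 683, 5448 and 5962 in heat and at 107, 201 and 151 in high light, without overlap, a difference of 4.24 ± 0.67 (adjusted p = 0.000302). HSFB2A (AT5G62020), of the class without an activation domain, was at 448, 847 and 1235 in heat and at 17.2, 39.0 and 48.7 in high light, a difference of 4.56 ± 0.44 (adjusted p = 1.08e-05). HSFA7B (AT3G63350) was at 0.655, 187 and 672 in heat and at 0.783, 0.765 and 4.43 in high light, where the value of heat 1 is a single read, and the groups overlapped. It differed by 4.53 ± 1.57 (adjusted p = 0.0299). HSFA2 (AT2G26150), which extends the heat response, was at 519.9, 9332 and 78546 in heat and at 129, 1383 and 4719 in high light. The groups overlapped, and its change of 2.94 ± 1.51 (adjusted p = 0.124) did not pass in the main fit. Its level in high light was above the 16.9, 63.8 and 16.2 of control libraries 1 to 3. MBF1C (AT3G24500), a coactivator of heat tolerance, was at 1752, 9304 and 29072 in heat and at 1037, 1015 and 1864 in high light, with heat 1 inside the high light range, and differed by 2.64 ± 0.71 (adjusted p = 0.00833). Of the 4 A1 factors, which act first, HSFA1E at 1.87 ± 0.35 and HSFA1A at 0.77 ± 0.19 were higher in heat, and HSFA1B at 0.09 ± 0.19 and HSFA1D at 0.35 ± 0.19 did not pass. HSFC1 was listed at 0 in all 6 libraries and was not tested. HSFA3 moved to 5.26 without heat 1, and HSFA7B moved to 2.78 to 3.70 without heat 3 or heat 2 and to 7.11 without heat 1. MBF1C moved to 1.69 without heat 3 and to 3.72 without heat 1. HSFA7B was no longer called without heat 2, heat 3, high light 1 or high light 2 and in the fit of the 6 libraries alone (2.78 to 4.53, adjusted p = 0.0793 to 0.132). HSFA2 passed without heat 1, in DESeq2, in edgeR and with the replicate block (2.94 to 4.84, adjusted p = 0.00394 to 0.0436).

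The 3-unit heat shock element was looked for as alternating units GAA, TTC and GAA with any 2 bases between units, or the reverse complement, in 250 bases before and 50 after each annotated start. It was found at 7 of the 88 promoters (7.95%) that could be read for the 100 genes with the largest change towards heat, at 2 of 99 (2.02%) for the 100 with the largest change towards high light, and at 111 of 19190 promoters of tested genes (0.578%). Over all genes called higher in heat it was at 40 of 4681 promoters (0.855%), and over all called higher in high light at 20 of 4808 (0.416%). The counts are descriptions of letters, not of binding. The windows of HSP17.4, the 1 listed small heat shock protein with a match, and of GolS1, which makes galactinol for raffinose and was also higher in heat, are printed because their matches lie before the start. They are the 250 bases upstream of the RefSeq start in TAIR10.1 (HSP17.4 at chr3:16984868-16985117, minus strand, GolS1 at chr2:19370479-19370728, minus strand), read 5′ to 3′ along the gene, with the heat shock elements in capitals.
HSP17.4: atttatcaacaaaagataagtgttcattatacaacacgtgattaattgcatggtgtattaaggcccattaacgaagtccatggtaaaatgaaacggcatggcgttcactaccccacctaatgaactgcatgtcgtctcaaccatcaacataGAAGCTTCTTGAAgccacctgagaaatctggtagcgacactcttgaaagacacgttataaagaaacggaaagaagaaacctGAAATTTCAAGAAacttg
GolS1: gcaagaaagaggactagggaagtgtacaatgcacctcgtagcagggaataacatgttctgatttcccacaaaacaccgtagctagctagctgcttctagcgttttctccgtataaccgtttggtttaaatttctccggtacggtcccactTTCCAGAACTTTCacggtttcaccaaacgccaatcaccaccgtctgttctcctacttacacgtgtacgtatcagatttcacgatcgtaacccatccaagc
HSP17.4 holds 2 elements, and it was at 1812, 11040.2 and 23155 in heat and at 0, 14.5 and 15.9 in high light. GolS1 holds 1, and it was at 2439, 6599 and 18665 in heat and at 359, 589.6 and 691 in high light, without overlap, a difference of 3.67 ± 0.60 (adjusted p = 0.000362). Among listed genes the element was also found in the windows of HSP70 at 4.89 ± 0.93, HOP3, HSFA7B and DREB2A at 1.35 ± 0.51 (adjusted p = 0.044), all higher in heat, and of ELIP1 and MCM6, which were higher in high light. It was found as well in those of HSFA2, HSFA7A at 2.47 ± 1.09 (adjusted p = 0.0778) and the clock gene PRR7 at 0.56 ± 0.24 (adjusted p = 0.0721), which did not pass. HSP22.0, HSP21, HSP18.2 and HSP101 had no match to these letters in the window. HSP17.4 moved to 8.90 to 9.45 without high light 1 or heat 3 and to 10.88 to 11.29 without high light 2, high light 3 or heat 1, and GolS1 moved to 2.93 without heat 3 and to 4.39 without heat 1. HSP70 moved to 3.92 to 3.94 without high light 1 or heat 3 and to 5.97 without heat 1, and DREB2A moved to 0.73 without heat 3 and to 2.02 without heat 1. DREB2A was no longer called without heat 2, heat 3, high light 1 or high light 2, in the fit of the 6 libraries alone, with no filter and with upper-quartile scaling (0.73 to 1.35, adjusted p = 0.0516 to 0.192). HSFA7A passed without heat 1 or high light 3, in DESeq2 and with the replicate block (2.47 to 3.72, adjusted p = 0.00735 to 0.0327) and PRR7 without high light 2 and with the replicate block (0.56 to 0.77, adjusted p = 0.0182 to 0.0278).

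Endoplasmic reticulum chaperones fold secreted proteins, and among them and the factors of the unfolded protein response 14 of 20 were higher in heat and 0 higher in high light (median 1.82). ERDJ3A (AT3G08970), a J protein of the endoplasmic reticulum lumen, was at 1162, 3321 and 3627 in heat and at 83.8, 291 and 249 in high light, a difference of 3.72 ± 0.53 (adjusted p = 0.000139) without overlap. SHD (AT4G24190), the HSP90 of the compartment, was at 44135, 62239 and 60955 in heat and at 9125, 17601 and 10162 in high light and differed by 2.23 ± 0.29 (adjusted p = 8.39e-05). The membrane-bound sensor BZIP28 was higher by 2.26 ± 0.40, the sensor IRE1A by 1.89 ± 0.24 and the IRE1 target BZIP60 by 1.82 ± 0.40. IRE1B at -0.30 ± 0.17 and CRT3 at -0.04 ± 0.24 did not pass. BIP1 and BIP2 are near-identical Hsp70 genes whose reads may have been split, and stood at 1.82 ± 0.34 and 2.20 ± 0.35. BZIP28 moved to 2.88 without heat 1.

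**Figure D3:**
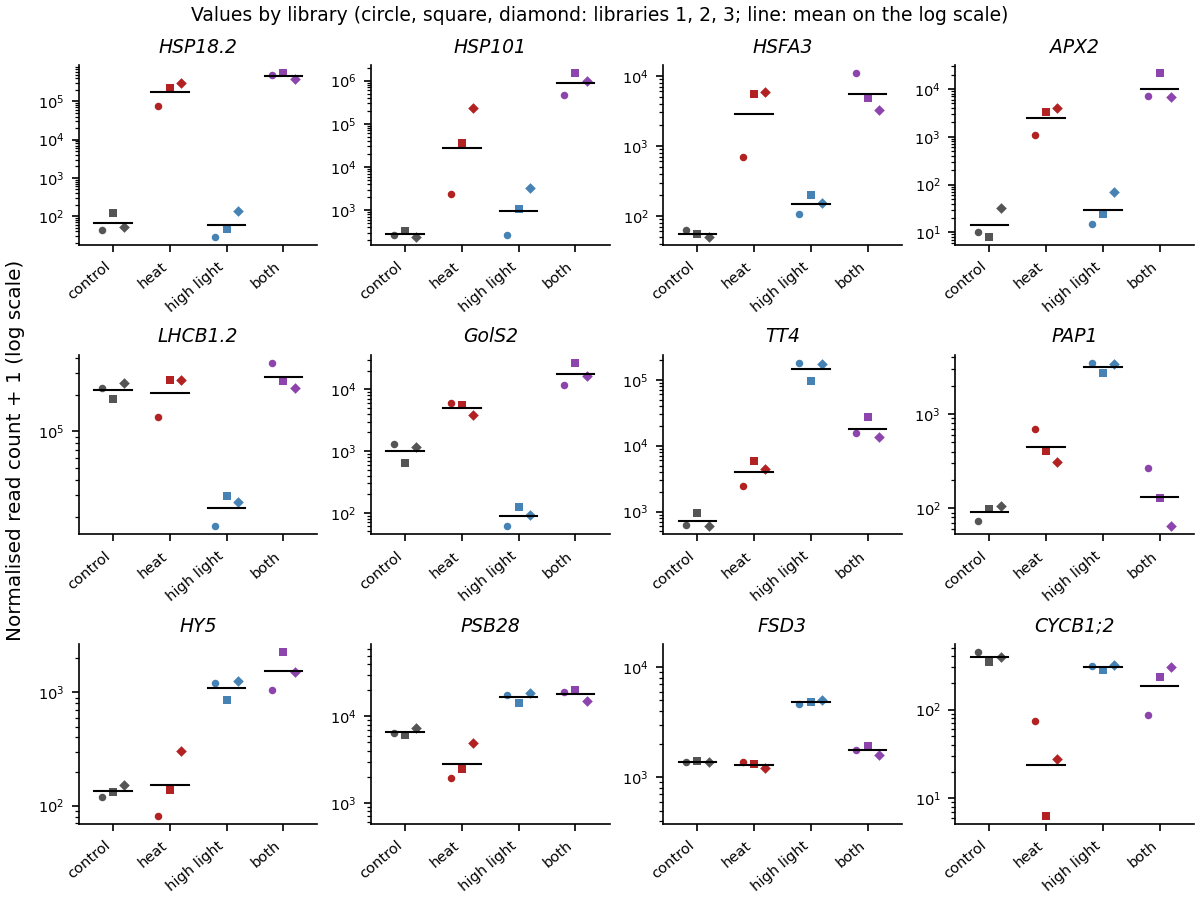
Normalised read count + 1 (vertical, log scale) of 12 genes in each library of the control, heat, high light and combination ("both") groups, with circles, squares and diamonds for libraries 1, 2 and 3 and a line at the mean on the log scale. HSP18.2, APX2, LHCB1.2 and GolS2 are high in all 3 heat libraries, and TT4, PAP1, HY5 and FSD3 in all 3 high light libraries, while HSP101 spans from 2325 to 231174 within heat.

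Flavonoids absorb ultraviolet and visible light and include the red anthocyanins. In their synthesis all 14 listed members were higher in high light, with changes of -8.77 to -2.82 (24.9% of all genes were higher in high light), with a list median of -7.34. TT4 (AT5G13930), the chalcone synthase that opens the route, was at 2471, 5865 and 4426 in heat and at 179685, 94171 and 175259 in high light, without overlap, a change of -5.17 ± 0.36 (adjusted p = 1.87e-06). FLS1 (AT5G08640), the flavonol synthase, was at 62.9, 188 and 350.1 in heat and at 43962, 21239 and 39532 in high light and changed by -7.69 ± 0.52 (adjusted p = 1.33e-06). TT7 (AT5G07990), the flavonoid 3′-hydroxylase, was at 76.0, 42.2 and 37.2 in heat and at 21101, 4564 and 13218 in high light, with a change of -7.75 ± 0.49 (adjusted p = 8.65e-07). Of the anthocyanin branch, DFR (AT5G42800) was at 113, 13.5 and 33.4 in heat and at 7601, 4599 and 6622 in high light, a change of -7.32 ± 0.59, and LDOX changed by -7.35 ± 0.55. UGT79B1 (AT5G54060), which adds xylose to anthocyanins, was at 40.6, 3.59 and 1.91 in heat and at 3855, 2589 and 4596 in high light, and its change was -8.77 ± 0.72 (adjusted p = 4.34e-06). TT19, a glutathione transferase that carries anthocyanins to the vacuole, changed by -8.50 ± 0.71 (adjusted p = 4.65e-06) and the acyltransferase 5MAT by -8.05 ± 0.70 (adjusted p = 6.01e-06). In DFR and UGT79B1 heat 1 was the highest of the heat libraries. The F3H count in heat came from 3 reads, and its level in high light was 201 (95% interval 68.5 to 979) times that in heat, an interval for counting error only. Upstream, among phenylpropanoid genes 0 of 8 were higher in heat and 4 higher in high light (median -1.92), led by 4CL3 at -5.82 ± 0.43 (adjusted p = 2.22e-06), PAL1 at -5.04 ± 0.56 (adjusted p = 2.56e-05) and PAL2 at -3.86 ± 0.58 (adjusted p = 0.000223), while PAL3, PAL4, 4CL1 and 4CL2 did not pass. FLS1 moved to -7.02 without heat 1, and TT7 moved to -8.38 without high light 2. DFR moved to -8.11 without heat 1 and to -6.62 without heat 2, and LDOX moved to -8.09 without heat 1. UGT79B1 moved to -9.94 without heat 1 and to -8.02 without heat 3, and TT19 moved to -9.53 without heat 1 and to -7.74 without heat 3. 5MAT moved to -9.02 without heat 1 and to -7.33 without heat 3, and PAL1 moved to -5.92 without heat 3. PAL2 moved to -4.72 without heat 3. PAL4 passed without heat 3 (-1.17, adjusted p = 0.0184) and 4CL1 without heat 3, with the replicate block and with upper-quartile scaling (-1.70 to -1.02, adjusted p = 0.000159 to 0.0464).

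The regulators differed likewise, and among them 0 of 9 were higher in heat and 7 higher in high light (median -4.03). PAP2 (AT1G66390), a MYB activator of anthocyanin genes, was at 1.31, 0 and 0 in heat and at 886, 385 and 1256 in high light, which is 2 reads over heat against 3053 over high light, a ratio of 1516 (95% interval 419 to 12524) for counting error only, and a change of -9.16 ± 0.80 (adjusted p = 6.27e-06). Its relative PAP1 (AT1G56650) was at 695, 403 and 309 in heat and at 3488, 2693 and 3362 in high light, without overlap, a change of -2.83 ± 0.42 (adjusted p = 0.000203), and both heat and high light were above the 71.8, 96.9 and 106 of control. MYB12 (AT2G47460), an activator of flavonol genes, was at 1.31, 2.69 and 2.86 in heat and at 1344, 528 and 908 in high light, a change of -8.08 ± 0.44 (adjusted p = 4.2e-07), and the bHLH partner TT8 changed by -4.58 ± 0.35 (adjusted p = 2.79e-06). MYB4, a repressor, was also higher in high light at -2.89 ± 0.36, while the repressor MYBL2 at -1.40 ± 0.68 and the bHLH protein EGL3 at -1.06 ± 0.43 did not pass. MYBL2 passed without heat 3 and with the replicate block (-2.35 to -1.40, adjusted p = 0.00228 to 0.017) and EGL3 without heat 1, in the fit of the 6 libraries alone, in DESeq2, in edgeR, with a pseudocount of 10 and with upper-quartile scaling (-1.31 to -0.99, adjusted p = 0.0128 to 0.0461).

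Among light signalling genes 9 of 17 were higher in heat and 4 higher in high light (median 0.72). HY5 (AT5G11260), the bZIP activator of light responses, was at 80.5, 137 and 303 in heat and at 1202, 859 and 1261 in high light, without overlap, a change of -2.86 ± 0.40 (adjusted p = 0.000124). Its homologue HYH changed by -3.71 ± 0.45 (adjusted p = 4.41e-05), and RUP1 and RUP2, repressors of the ultraviolet-B receptor UVR8, by -5.30 ± 0.53 (adjusted p = 1.41e-05) and -4.26 ± 0.64 (adjusted p = 0.000205). UVR8 itself did not pass, with a change of 0.31 ± 0.16. Higher in heat were PIF3 at 2.55 ± 0.33, PIF4 at 1.65 ± 0.26, PIF5 at 1.32 ± 0.26 and PIF1 at 1.34 ± 0.26, the phytochrome-interacting factors that promote growth in the dark and warmth, and the photoreceptors PHYA at 1.57 ± 0.19, CRY2 at 1.13 ± 0.18 and CRY1 at 0.88 ± 0.23. HYH moved to -4.32 without heat 3, and RUP1 moved to -5.97 without heat 3. RUP2 moved to -5.20 without heat 3 and to -3.54 without heat 1.

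The G-box CACGTG, a palindrome bound by bZIP and bHLH factors, was found in the same windows at 8.93% of tested genes, 12.0% of genes higher in heat and 7.09% of genes higher in high light. Among promoters that could be read, it was at 12 of 88 (13.6%) for the 100 largest higher in heat and at 15 of 99 (15.2%) for the 100 largest higher in high light. Printed here are the 250 bases before the start of 3 flavonoid genes with a G-box in that stretch (TT4 at chr5:4488226-4488475, plus strand, DFR at chr5:17166033-17166282, minus strand, UGT79B1 at chr5:21938397-21938646, minus strand, all TAIR10.1), to show where the letters lie in the first step and the late steps of the route, with G-boxes in capitals.
TT4: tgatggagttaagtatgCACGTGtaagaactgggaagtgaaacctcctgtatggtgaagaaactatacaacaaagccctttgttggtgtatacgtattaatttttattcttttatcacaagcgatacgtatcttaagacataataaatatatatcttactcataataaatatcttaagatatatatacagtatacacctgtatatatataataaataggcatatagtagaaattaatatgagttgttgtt
DFR: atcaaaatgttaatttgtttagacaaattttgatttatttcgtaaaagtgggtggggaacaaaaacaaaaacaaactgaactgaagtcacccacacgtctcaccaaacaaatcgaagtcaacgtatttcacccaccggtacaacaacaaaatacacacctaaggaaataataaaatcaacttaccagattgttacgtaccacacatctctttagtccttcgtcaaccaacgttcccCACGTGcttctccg
UGT79B1: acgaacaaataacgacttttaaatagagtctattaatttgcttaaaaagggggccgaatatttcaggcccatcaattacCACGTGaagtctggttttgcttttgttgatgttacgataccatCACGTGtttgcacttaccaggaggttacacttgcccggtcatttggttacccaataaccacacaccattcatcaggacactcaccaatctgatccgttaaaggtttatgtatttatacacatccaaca
UGT79B1 holds 2 in the stretch, and DFR 1 there and another after the start. Of the other flavonoid synthesis genes, F3H, TT5 and CHIL had a G-box in the window. FLS1, TT7, LDOX, TT19, 5MAT, UGT78D1, UGT78D2 and UGT78D3 had none. The evening element, AAATATCT or its reverse complement AGATATTT, was at 6.07% of tested genes. Of the same 88 and 99 promoters, it was at 7.95% for the largest in heat and 9.09% for the largest in high light. The W-box, TTGACC or GGTCAA, was at 14.2%, 10.2% and 7.07% in that order.

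Early light-induced proteins bind free pigments under excess light, and among them and their relatives 0 of 6 were higher in heat and 3 higher in high light (median -0.90). ELIP1 (AT3G22840) was at 47.8, 1849 and 1709 in heat and at 75557, 33708 and 63100.4 in high light, a change of -6.66 ± 1.12 (adjusted p = 0.000446), and ELIP2 (AT4G14690) was at 5.89, 144 and 152 in heat and at 21269, 3424 and 14771 in high light, a change of -7.58 ± 1.07 (adjusted p = 0.000134). Neither overlapped, and heat 1 lay far below heat 2 and 3 in both. Heat 2 and 3 of ELIP1 were above control, where it was at 16.9, 76.5 and 57.2. LIL3:1, which anchors chlorophyll-synthesis enzymes, changed by -0.96 ± 0.18 (adjusted p = 0.000789). ELIP1 moved to -7.56 to -7.50 without heat 2 or heat 3 and to -4.93 without heat 1, and ELIP2 moved to -8.38 to -8.30 without high light 2, heat 3 or heat 2 and to -6.11 without heat 1.

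Antenna proteins gather light, and among their genes 16 of 20 were higher in heat and 3 higher in high light (median 1.98). LHCB1.2 (AT1G29910), of the main photosystem II antenna, was at 130337, 263363 and 263712 in heat and at 16653, 29725 and 26469 in high light, without overlap, a difference of 3.14 ± 0.35 (adjusted p = 2.52e-05). LHCB1.1 (AT1G29920) was at 52483, 101476 and 174249 in heat and at 10132, 18794 and 14586 in high light, a difference of 2.79 ± 0.38 (adjusted p = 0.000114). LHCB4.2 (AT3G08940), a minor antenna protein, was at 28283, 43037 and 40087 in heat and at 2151, 5931 and 3639.97 in high light and differed by 3.35 ± 0.31 (adjusted p = 7.78e-06). Its relative LHCB4.3 (AT2G40100) went the other way, at 211, 735 and 403 in heat and at 2452, 3708 and 2509 in high light, a change of -2.83 ± 0.44 (adjusted p = 0.000247). LHCB1.4 differed by 7.07 ± 0.50 (adjusted p = 1.97e-06) and LHCB1.3 by 1.02 ± 0.38 (adjusted p = 0.0411), but LHCB1 genes are near-identical and LHCB1.5 was listed at 0 in every library, so that their reads cannot be assigned with certainty. LHCB1.2 in control was at 225521, 183485 and 249035. Together the antenna transcripts took 4.63% to 6.37% of reads in heat, 1.17% to 1.86% in high light and 8.33% to 9.76% in control. LHCB1.3 was no longer called without heat 2, heat 3, high light 1, high light 2 or high light 3, in the fit of the 6 libraries alone, with no filter and with the replicate block (0.66 to 1.11, adjusted p = 0.0528 to 0.148).

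Of the subunits of both photosystems that the nucleus encodes, 16 of 24 were higher in heat and 2 higher in high light (median 0.87). PSAD-2 (AT1G03130), on the stromal side of photosystem I, was at 8743, 19997 and 23295 in heat and at 2268, 4893 and 3805 in high light, without overlap, a difference of 2.20 ± 0.34 (adjusted p = 0.000247). PSBR, of the oxygen-evolving side of photosystem II, differed by 1.53 ± 0.27 (adjusted p = 0.000664). Higher in high light were PSB28 (AT4G28660), an assembly factor, at 1925, 2429 and 4897 in heat and at 17597, 14356 and 18763 in high light, a change of -2.56 ± 0.28 (adjusted p = 2.27e-05), and PSBS (AT1G44575), the sensor of energy-dependent quenching, at 49709.9, 66179 and 53959.5 in heat and at 156115, 144019 and 144394 in high light, a change of -1.40 ± 0.20 (adjusted p = 0.000158). Neither overlapped.

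In the repair of photosystem II, 4 of 13 were higher in heat and 3 higher in high light (median -0.31), against 24.5% and 24.9% of all genes. FTSH6 (AT5G15250), a thylakoid protease known from heat acclimation, was at 154, 254 and 189.8 in heat and at 0.783, 0.765 and 1.77 in high light, a difference of 6.57 ± 0.49 (adjusted p = 2.49e-06), and the kinase STN8 and the protease DEG1 were higher in heat by 0.99 ± 0.19 and 0.96 ± 0.21. FTSH5, which degrades damaged D1 protein, changed by -0.96 ± 0.23, and FTSH2 at 0.03 ± 0.24 did not pass. For photosystem II repair and regulation, the number higher in high light was 5 without heat 2 and with upper-quartile scaling.

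Chlorophyll synthesis held members of both directions. Of 18 genes, 6 were higher in heat and 6 higher in high light (median 0.27), against 24.5% and 24.9% of all genes. PORA (AT5G54190), a light-dependent protochlorophyllide reductase, was at 28.8, 132 and 428 in heat and at 5.48, 2.29 and 1.77 in high light, without overlap, a difference of 4.94 ± 0.70 (adjusted p = 0.000139). CH1, which makes chlorophyll b, was higher in heat by 1.47 ± 0.28 (adjusted p = 0.00103) and CRD1 by 1.30 ± 0.37 (adjusted p = 0.0122), while CHLI2 at -1.27 ± 0.15, GSA1 at -1.24 ± 0.16 and HEMC at -1.02 ± 0.17 were higher in high light. For chlorophyll synthesis, the number higher in heat was 2 without heat 2 or high light 1. PORA moved to 4.02 without heat 3 and to 5.94 without heat 1. CRD1 was no longer called without heat 2, heat 3 or high light 1 (0.98 at the lowest, adjusted p = 0.0502 to 0.0613).

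In chlorophyll breakdown 3 of 9 were higher in heat and 2 higher in high light (median -0.07), against 24.5% and 24.9% of all genes. PPH, which removes phytol, was higher in heat by 1.27 ± 0.21 (adjusted p = 0.000387), and NYC1, the chlorophyll b reductase, and CLH1 were higher in high light with changes of -1.25 ± 0.27 (adjusted p = 0.00246) and -1.89 ± 0.41 (adjusted p = 0.0024). CLH1 moved to -2.52 without heat 1.

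In the Calvin cycle 1 of 18 were higher in heat and 7 higher in high light (median -0.31). RBCS1A (AT1G67090), with the levels given above, did not overlap and changed by -1.17 ± 0.30 (adjusted p = 0.00641). RBCS1B changed by -1.43 ± 0.24 (adjusted p = 0.000436) and the regulator CP12-2 by -1.33 ± 0.19 (adjusted p = 0.000139), but RBCS3B at -0.07 ± 0.27 and Rubisco activase RCA at 0.45 ± 0.38 did not pass. The RBCS genes are near-identical and may share reads. For Calvin cycle, the number higher in heat was 0 without heat 2, high light 1, high light 2 or high light 3 and in the fit of the 6 libraries alone and 2 without heat 1 and in DESeq2. For Calvin cycle, the number higher in high light was 2 in the fit of the 6 libraries alone and 4 with no filter. RBCS1A was no longer called in the fit of the 6 libraries alone and with no filter (-1.17, adjusted p = 0.0626 to 0.103).

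Photorespiration recycles the product of Rubisco's oxygenation, and among its genes 1 of 11 were higher in heat and 6 higher in high light (median -0.57). GDCH (AT2G35370), a subunit of glycine decarboxylase, was at 10199.7, 9219.5 and 7435 in heat and at 27130.1, 27363 and 29916 in high light, without overlap, a change of -1.66 ± 0.19 (adjusted p = 2.81e-05). GLDP1, another subunit, changed by -1.64 ± 0.29 (adjusted p = 0.000614) and the aminotransferase AOAT2 by -1.27 ± 0.39 (adjusted p = 0.0175), whereas GGT1 was higher in heat by 0.90 ± 0.28. For photorespiration, the number higher in heat was 0 without heat 2, heat 3 or high light 1 and in the fit of the 6 libraries alone. For photorespiration, the number higher in high light was 3 without heat 1 or high light 2 and in the fit of the 6 libraries alone. AOAT2 was no longer called without heat 1, heat 2 or high light 2 and in the fit of the 6 libraries alone (-1.27 to -0.76, adjusted p = 0.0546 to 0.064) and GGT1 without heat 2, heat 3 or high light 1 and in the fit of the 6 libraries alone (0.73 to 0.90, adjusted p = 0.0617 to 0.0794).

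Starch stores and raffinose sugars were listed together, and 4 of 17 were higher in heat and 10 higher in high light (median -0.85). The 4 higher in heat were the galactinol synthases GolS1 and GolS2, the beta-amylase BAM1 and the starch synthase GBSS1 at 1.79 ± 0.57 (adjusted p = 0.0202). A further galactinol synthase, GolS3, was at -0.19 ± 0.41 and did not pass. GolS2 (AT1G56600), a galactinol synthase of drought, was at 6024, 5592 and 3838 in heat and at 59.5, 122 and 90.3 in high light, without overlap, a difference of 5.84 ± 0.34 (adjusted p = 5.8e-07). Its control libraries, at 1277, 649 and 1142, lay between the stresses. The beta-amylases split: BAM1 was higher in heat by 2.15 ± 0.48, and BAM3 (AT4G17090), at 5748, 5245 and 9560.03 in heat and at 32815, 22886 and 32678 in high light, was higher in high light with a change of -2.14 ± 0.24. BAM5 changed by -2.52 ± 0.96 (adjusted p = 0.0438). The starch phosphatase SEX4 changed by -1.83 ± 0.31 and the plastid phosphoglucomutase PGM by -1.35 ± 0.17. GBSS1 moved to 0.98 without heat 3 and to 2.52 without heat 1, and BAM1 moved to 1.48 without heat 3 and to 2.79 without heat 1. GBSS1 was no longer called without heat 3, high light 1 or high light 3 and in the fit of the 6 libraries alone (0.98 to 1.79, adjusted p = 0.0616 to 0.0788) and BAM5 without heat 2, heat 3, high light 1 or high light 3, in DESeq2, with no filter and with a pseudocount of 0.5 (-2.54 to -2.04, adjusted p = 0.0547 to 0.147).

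Of the dark and starvation genes, 3 of 6 were higher in heat and 0 higher in high light (median 1.42). SEN1 (AT4G35770) was at 36.0, 34.1 and 90.6 in heat and at 0, 0.765 and 0.885 in high light, and its level in heat was 94.7 (95% interval 25.8 to 787) times that in high light, an interval for counting error only, with a change of 5.04 ± 0.44 (adjusted p = 5.73e-06). ASN1, an asparagine synthetase induced in the dark, was higher in heat by 3.51 ± 0.57 (adjusted p = 0.000364) and DIN10 by 1.76 ± 0.21 (adjusted p = 5e-05). All 3 were higher still in control, with means of 162 ± 54.5, 537 ± 161 and 1279 ± 115 (SD, n = 3). For dark and starvation genes, the number higher in high light was 1 without high light 2, in DESeq2 and in edgeR. ASN1 moved to 2.78 without heat 3.

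Oxygen scavengers split within enzyme families. Of 27 genes, 4 were higher in heat, 6 were higher in high light and 17 were not called (median -0.10), against 24.5% and 24.9% of all genes higher in each. APX2 (AT3G09640), the heat-inducible cytosolic ascorbate peroxidase, was at 1108, 3361 and 4025 in heat and at 14.1, 23.7 and 68.2 in high light, without overlap, a difference of 6.38 ± 0.69 (adjusted p = 2.15e-05). APX1 (AT1G07890), its constitutive relative, was at 16411, 22219 and 27455 in heat and at 34832, 26283 and 36405 in high light, with heat 3 inside the high light range, and changed by -0.58 ± 0.22 (adjusted p = 0.0473). The stromal peroxidase SAPX (AT4G08390) was at 1379, 1943 and 2456 in heat and at 11783, 8317 and 13404 in high light, a change of -2.55 ± 0.22 (adjusted p = 6.01e-06), while the thylakoid TAPX was higher in heat by 1.02 ± 0.17. FSD3 (AT5G23310), an iron superoxide dismutase of chloroplast nucleoids, was at 1374, 1311 and 1217 in heat and at 4634, 4879.9 and 5030.1 in high light and changed by -1.90 ± 0.13 (adjusted p = 1.16e-06), and its partner FSD2 changed by -1.68 ± 0.30, but FSD1 at 0.16 ± 0.53 did not pass. Among catalases, CAT3 was higher in heat by 1.43 ± 0.27, and CAT2 (AT4G35090) was at 11489, 52353 and 81283 in heat and at 21468, 30368 and 24989 in high light, overlapping, with a change of 0.53 ± 0.52 (adjusted p = 0.421) that turned to -0.048 (adjusted p = 0.944) without heat 3. The copper-zinc enzymes CSD1, CSD2 and their chaperone CCS did not pass, and heat 3 was the lowest library of all 6 for each. CSD2 (AT2G28190) was at 10727, 16352 and 1908 in heat and at 13277, 16295 and 11229.8 in high light. Library 3 was also its lowest in control, at 15054, 14125 and 5699.7, and in the combination, at 35244, 29856 and 3124. APX2 moved to 7.00 without high light 3. APX1 was no longer called without heat 1, heat 2, high light 1 or high light 3, in the fit of the 6 libraries alone, in edgeR, with no filter and with the replicate block (-0.60 to -0.38, adjusted p = 0.0547 to 0.149). CAT2 passed without heat 1 (1.36, adjusted p = 0.000655) and CSD1 with the replicate block (-1.04, adjusted p = 0.0355).

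**Figure D4:**
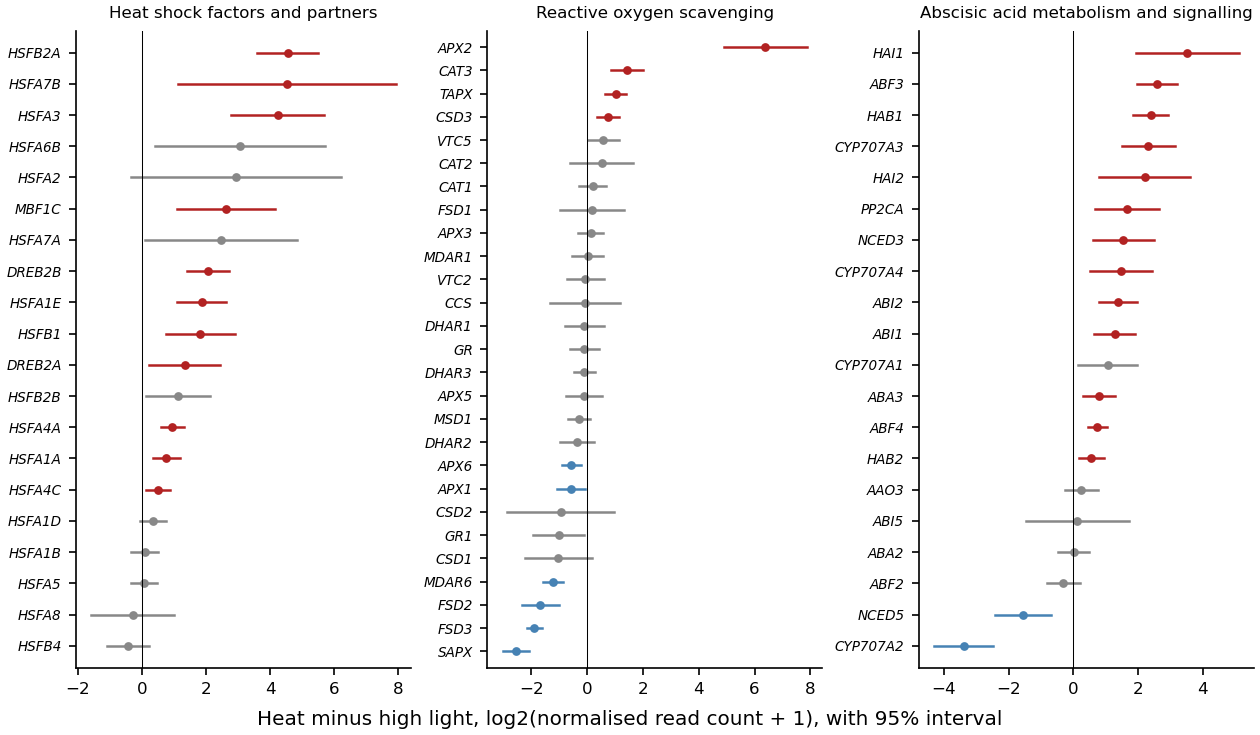
Difference of each gene as heat minus high light in log2(normalised read count + 1), with its 95% interval not adjusted for the number of genes, for 3 lists. Red genes were higher in heat, blue genes higher in high light and grey genes did not pass the adjusted test. APX2 and CAT3 lie on the heat side and SAPX, FSD3 and FSD2 on the high light side, and CYP707A2 and NCED5 stand apart from the other abscisic acid genes.

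Tocopherols and carotenoids protect membranes from light, and among their synthesis genes 5 of 16 were higher in heat and 7 higher in high light (median -0.49). CCD4 (AT4G19170), which cleaves carotenoids, was at 2533, 4516 and 6242 in heat and at 90.8, 466 and 194 in high light, without overlap, a difference of 4.35 ± 0.50 (adjusted p = 3.28e-05), and PDS1, of the shared quinone precursor, was higher in heat by 1.37 ± 0.41 (adjusted p = 0.014). LUT5, a carotene hydroxylase, changed by -1.09 ± 0.14 (adjusted p = 5.92e-05) and the violaxanthin de-epoxidase NPQ1 by -0.86 ± 0.15. For tocopherol and carotenoid synthesis, the number higher in heat was 3 without heat 2, heat 3 or high light 1. CCD4 moved to 4.96 without high light 2. PDS1 was no longer called without heat 2, heat 3 or high light 1 (0.91 to 1.28, adjusted p = 0.0503 to 0.0577).

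For alternative respiration 1 of 6 were higher in heat and 2 higher in high light (median 0.14), against 24.5% and 24.9% of all genes. AOX1C changed by -2.17 ± 0.51 (adjusted p = 0.00411) and the type II dehydrogenase NDC1 by -1.13 ± 0.18 (adjusted p = 0.000251), and NDB2 was higher in heat by 1.37 ± 0.37 (adjusted p = 0.00879). AOX1A, the main alternative oxidase gene, was at 0.96 ± 0.42 and did not pass. AOX1B was listed at 0 in all libraries. For alternative respiration, the number higher in heat was 2 without heat 1, in the fit of the 6 libraries alone, in DESeq2 and with no filter. For alternative respiration, the number higher in high light was 1 with a filter at 50. AOX1A passed without heat 1, in the fit of the 6 libraries alone and in DESeq2 (0.96 to 1.25, adjusted p = 0.0287 to 0.0457).

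Among abscisic acid genes 13 of 20 were higher in heat and 2 higher in high light (median 1.17). HAI1 (AT5G59220), a phosphatase induced by the hormone, was at 3076.7, 2250.1 and 1155 in heat and at 177, 115 and 254 in high light, without overlap, a difference of 3.52 ± 0.73 (adjusted p = 0.00184). The transcription factor ABF3 was higher in heat by 2.60 ± 0.29 (adjusted p = 2.4e-05) and the phosphatase HAB1 by 2.40 ± 0.25. NCED3 (AT3G14440), the rate-limiting step of synthesis under drought, was at 1176, 409.6 and 271 in heat and at 189, 141 and 191 in high light, with heat 1 the highest, and differed by 1.55 ± 0.43 (adjusted p = 0.0106). Hydroxylases that break the hormone down went both ways: CYP707A2 (AT2G29090) was at 57.6, 82.6 and 56.3 in heat and at 773, 784 and 525 in high light, a change of -3.38 ± 0.42 (adjusted p = 5.91e-05), and CYP707A3 was higher in heat by 2.33 ± 0.38. NCED5, a further synthesis gene, changed by -1.56 ± 0.40. For abscisic acid metabolism and signalling, the number higher in high light was 1 with a filter at 50. NCED3 moved to 0.95 without heat 1.

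Of the cold and dehydration genes, 5 of 14 were higher in heat and 4 higher in high light (median 0.36), against 24.5% and 24.9% of all genes. RD29B (AT5G52300), a marker of abscisic acid, was at 186, 436 and 647 in heat and at 9.39, 8.41 and 21.3 in high light, a difference of 4.86 ± 0.86 (adjusted p = 0.000661), and CBF2 was higher in heat by 3.64 ± 0.48 (adjusted p = 8.48e-05). COR15B (AT2G42530), a chloroplast protein that protects membranes from freezing, was at 9319.7, 6241 and 3891 in heat and at 76375, 50159 and 92899 in high light, a change of -3.54 ± 0.49 (adjusted p = 0.000125), and COR15A changed by -2.37 ± 0.55. COR15A and COR15B are close copies and may share reads.

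Of the NAC factors, 4 of 8 were higher in heat and 0 higher in high light (median 1.49). NAP (AT1G69490), a senescence factor, was at 245, 229.9 and 495 in heat and at 15.7, 6.88 and 15.9 in high light, a difference of 4.54 ± 0.45 (adjusted p = 1.31e-05) without overlap, NAC6 differed by 3.16 ± 0.53 (adjusted p = 0.000436) and RD26 by 2.02 ± 0.72 (adjusted p = 0.0329). For NAC factors of stress and senescence, the number higher in high light was 1 without heat 1. RD26 moved to 1.25 without heat 1. RD26 was no longer called without heat 1, high light 1 or high light 2 (1.25 to 1.95, adjusted p = 0.0825 to 0.133).

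Of the salicylic acid genes, 0 of 15 were higher in heat and 6 higher in high light (median -1.16). PCC1 (AT3G22231) was at 49.1, 79.0 and 185 in heat and at 7291, 2612 and 5424 in high light, without overlap, a change of -5.69 ± 0.53 (adjusted p = 8.59e-06), against 22872, 18255 and 23251 in control. LURP1 changed by -4.56 ± 0.60 (adjusted p = 8.44e-05) and PR5 by -3.73 ± 0.39 (adjusted p = 1.78e-05). PR1 (AT2G14610), the usual marker of the pathway, was at 18.3, 10.8 and 0.954 in heat and at 65.8, 8.41 and 5.31 in high light, overlapping, with a change of -1.05 ± 1.36 (adjusted p = 0.543). For salicylic acid and immune response, the number higher in heat was 1 without heat 1 or heat 2, in DESeq2 and in edgeR.

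Of the WRKY factors 2 of 11 were higher in heat and 3 higher in high light (median 0.40), against 24.5% and 24.9% of all genes. WRKY54 changed by -3.24 ± 0.56 (adjusted p = 0.000575), and WRKY25 was higher in heat by 1.86 ± 0.35 (adjusted p = 0.000866) and WRKY33 by 1.43 ± 0.32 (adjusted p = 0.00301). Of the zinc fingers, 1 of 7 were higher in heat and 0 higher in high light (median 0.79), against the same shares of all genes. AZF2 was higher in heat by 1.53 ± 0.39 (adjusted p = 0.0062). ZAT10 (STZ, AT1G27730) was at 230.5, 283 and 673 in heat and at 377, 106 and 207 in high light, a change of 0.80 ± 0.57 (adjusted p = 0.259), and ZAT12 (RHL41, AT5G59820) was at 38.6, 138 and 246 in heat and at 329.6, 82.6 and 259 in high light, a change of -0.80 ± 0.62 (adjusted p = 0.305). Both overlapped between the groups. For stress zinc fingers, the number higher in high light was 1 without heat 3 or high light 2 and with upper-quartile scaling. WRKY54 moved to -3.96 without heat 1.

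Jasmonate marks wounding and drives defence. In its synthesis 1 of 14 were higher in heat and 3 higher in high light (median -0.39), and in signalling and output 2 of 15 were higher in heat and 4 higher in high light (median -0.16). Over all genes the shares were 24.5% and 24.9%. LOX2 (AT3G45140), the plastid lipoxygenase that opens synthesis, was at 32872, 9819 and 8518 in heat and at 27323, 23401 and 29477 in high light, with heat 1 the highest of the 6, and its change was -0.93 ± 0.43 (adjusted p = 0.0943). JMT changed by -1.53 ± 0.34 (adjusted p = 0.00299) and OPR3 by -1.03 ± 0.32 (adjusted p = 0.0175), while AOC1 was higher in heat by 1.24 ± 0.19 (adjusted p = 0.000203). AOC genes are close copies. The repressors JAZ9 and JAZ6 changed by -1.88 ± 0.41 (adjusted p = 0.0025) and -1.26 ± 0.41 (adjusted p = 0.0222), and the storage protein VSP1 by -3.06 ± 1.09 (adjusted p = 0.0339). VSP2, its near copy, was at 0.09 ± 1.11. MYC2 was listed at 0 in 5 of the 6 libraries and was not tested. For jasmonate synthesis, the number higher in high light was 1 without heat 2, heat 3 or high light 3 and 6 without heat 1. For jasmonate signalling and output, the number higher in high light was 2 without heat 2 or high light 1. VSP1 moved to -3.91 to -3.77 without heat 1 or high light 2 and to -2.02 without heat 2. OPR3 was no longer called without heat 2, heat 3 or high light 3 (-0.91 to -0.73, adjusted p = 0.0583 to 0.0862) and JAZ6 without heat 2 or high light 1 (-1.07 to -0.75, adjusted p = 0.087 to 0.103). VSP1 was no longer called without heat 2, heat 3, high light 1 or high light 3 and with a robust variance (-3.24 to -2.02, adjusted p = 0.0542 to 0.161). LOX2 passed without heat 1 (-1.54, adjusted p = 0.00111).

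In the clock 5 of 18 were higher in heat and 0 higher in high light (median 0.55), against 24.5% and 24.9% of all genes. The 5 called were CCA1, RVE1, RVE4, LNK2 and BOA. CCA1 (AT2G46830), a morning MYB factor, was at 507, 1734 and 4625 in heat and at 53.2, 242 and 83.2 in high light, without overlap, a difference of 3.95 ± 0.69 (adjusted p = 0.000602). RVE1 differed by 3.00 ± 1.02 (adjusted p = 0.0276) and BOA by 1.84 ± 0.42 (adjusted p = 0.00326), while LHY (AT1G01060), the close relative of CCA1, was at 55.0, 472 and 2709 in heat and at 62.6, 104 and 76.1 in high light, overlapping, with a change of 2.37 ± 0.98 (adjusted p = 0.061). The evening genes TOC1 at -0.17 ± 0.51, LUX at -0.08 ± 0.40 and GI at -0.26 ± 0.19 did not pass. For circadian clock, the number higher in heat was 8 with the replicate block and 9 without heat 1. For circadian clock, the number higher in high light was 1 in the fit of the 6 libraries alone, in edgeR, with a pseudocount of 10 and with the replicate block. CCA1 moved to 3.18 without heat 3 and to 4.56 to 4.78 without high light 2 or heat 1, and RVE1 moved to 1.35 without heat 3 and to 4.17 without heat 1. RVE1 was no longer called without high light 1, high light 2 or high light 3 and in the fit of the 6 libraries alone (2.81 to 3.11, adjusted p = 0.0559 to 0.0788). LHY passed without heat 1, in DESeq2, in edgeR and with the replicate block (2.37 to 3.82, adjusted p = 0.000477 to 0.0257).

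Of the SR splicing factors, 5 of 19 were higher in heat and 4 higher in high light (median 0.04), near the 24.5% and 24.9% of all genes. SR34b was higher in heat by 2.07 ± 0.29 (adjusted p = 0.000135), SR30 by 1.78 ± 0.29 (adjusted p = 0.000345) and SR34 by 1.09 ± 0.18 (adjusted p = 0.000429). For SR splicing factors, the number higher in high light was 0 without heat 1 or high light 3, 1 without heat 2 and in the fit of the 6 libraries alone and 2 without high light 1, with no filter and with the replicate block.

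All 16 listed genes of DNA replication and the cell cycle were higher in high light than in heat, with a median of -1.60 (24.9% of all genes were higher in high light). The list was chosen with earlier results of these data known, so its agreement is no test. CYCB1;2 (AT5G06150), a mitotic cyclin, was at 72.7, 5.39 and 26.7 in heat and at 308, 281 and 317 in high light, without overlap, a change of -3.68 ± 0.68 (adjusted p = 0.000813). CDKB2;2, a mitotic kinase, changed by -2.33 ± 0.52 (adjusted p = 0.00296) and the cyclin CYCA1;1 by -2.14 ± 0.63 (adjusted p = 0.0138). Of the replication helicase, MCM3 changed by -1.58 ± 0.24 and MCM4 by -1.24 ± 0.22. Control was at 441, 346 and 394 for CYCB1;2, above both stresses. CYCB1;2 moved to -4.51 without heat 1 and to -2.74 without heat 2, and CDKB2;2 moved to -3.02 without heat 1 and to -1.62 without heat 3. CYCA1;1 moved to -3.15 without heat 1. CYCA1;1 was no longer called without heat 2 or heat 3 and in edgeR (-1.64 to -1.36, adjusted p = 0.0598 to 0.0982).

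Plasma membrane aquaporins carry water, and of their genes 10 of 13 were higher in heat and 1 higher in high light (median 1.85). RD28 (AT2G37180) was at 3845, 13566 and 11177 in heat and at 441, 978 and 818 in high light, without overlap, a difference of 3.56 ± 0.45 (adjusted p = 6.51e-05), PIP2B differed by 2.55 ± 0.44 (adjusted p = 0.000542) and PIP1;5 by 2.42 ± 0.15 (adjusted p = 9.32e-07). RD28 and PIP2B are near-identical neighbours. For plasma membrane aquaporins, the number higher in high light was 0 without heat 2, heat 3 or high light 1.

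Expansins loosen cell walls, and 1 of 9 were higher in heat and 4 higher in high light (median -0.42), with EXPA1 at -2.31 ± 0.43 (adjusted p = 0.000883), EXPA10 at -1.80 ± 0.37 (adjusted p = 0.00183) and EXPA8 higher in heat by 2.44 ± 0.70 (adjusted p = 0.0116). For expansins, the number higher in heat was 0 without high light 1. For expansins, the number higher in high light was 7 without heat 1. EXPA8 moved to 1.64 to 1.81 without heat 1 or high light 1 and to 3.26 without high light 2. EXPA8 was no longer called without high light 1 (1.81, adjusted p = 0.058).

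Of the fatty acid desaturases, 2 of 9 were higher in heat and 2 higher in high light (median 0.01), near the 24.5% and 24.9% of all genes. FAD8 (AT5G05580), the temperature-sensitive plastid omega-3 desaturase, was at 398, 763 and 1679 in heat and at 5691, 4687 and 4401 in high light, a change of -2.61 ± 0.37 (adjusted p = 0.000128), FAD3 changed by -0.76 ± 0.18 (adjusted p = 0.00435) and ADS1 was higher in heat by 1.98 ± 0.55 (adjusted p = 0.00981). For fatty acid desaturases, the number higher in heat was 1 without heat 2, high light 1 or high light 2, in the fit of the 6 libraries alone and with upper-quartile scaling.

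Aliphatic glucosinolates are defence compounds, and of their synthesis genes 0 of 13 were higher in heat and 7 higher in high light, with changes from -2.14 to -0.70. SOT17 stood at -2.14 ± 0.57 (adjusted p = 0.00817), CYP79F1 at -1.95 ± 0.48 (adjusted p = 0.00513) and SUR1 at -1.67 ± 0.29 (adjusted p = 0.000614). For aliphatic glucosinolate synthesis, the number higher in high light was 4 without heat 2, heat 3 or high light 3. SOT17 moved to -2.83 without heat 1 and to -1.50 without heat 2.

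Proline accumulates in many stresses. Of its metabolic genes 2 of 5 were higher in heat and 1 higher in high light (median -0.59), against 24.5% and 24.9% of all genes. P5CS1 was higher in heat by 0.95 ± 0.32 (adjusted p = 0.0263) and P5CR by 0.94 ± 0.19 (adjusted p = 0.00168), and ALDH12A1 changed by -0.59 ± 0.16 (adjusted p = 0.00944). For proline metabolism, the number higher in heat was 1 without heat 1, high light 1, high light 2 or high light 3 and with upper-quartile scaling. For proline metabolism, the number higher in high light was 2 with the replicate block and with upper-quartile scaling and 3 without heat 3. P5CS1 was no longer called without heat 1, high light 1, high light 2 or high light 3 and with upper-quartile scaling (0.52 to 0.98, adjusted p = 0.0535 to 0.081).

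The leaf's cell types were followed by their markers, whose counts stand against 24.5% of all genes higher in heat and 24.9% higher in high light. Of guard cell markers 1 of 8 were higher in heat and 4 higher in high light (median -0.66), with summed counts of 1679 to 2247 in heat and 2584 to 2681 in high light. SLAC1 had means of 38.1 ± 8.45 in heat and 83.0 ± 19.0 in high light (SD, n = 3, limma adjusted p = 0.0082), MYB60 changed by -0.96 ± 0.37 (adjusted p = 0.0436) and FAMA by -0.84 ± 0.19 (adjusted p = 0.00261). For guard cell markers, the number higher in heat was 0 without heat 2, heat 3, high light 1, high light 2 or high light 3, in the fit of the 6 libraries alone, with no filter and with upper-quartile scaling. Of phloem markers 1 of 6 were higher in heat and 0 higher in high light (median 0.33), SULTR2;1 at 0.69 ± 0.25 (adjusted p = 0.0327), with sums of 11363 to 18358 and 11618 to 13056. For phloem markers, the number higher in heat was 0 without heat 2 or high light 1 and with upper-quartile scaling and 2 without heat 3. Of epidermis markers 0 of 6 were higher in heat and 1 higher in high light (median -0.15), PDF2 at -0.66 ± 0.23 (adjusted p = 0.0281), with sums of 18508 to 24442 and 21497 to 26307. For epidermis markers, the number higher in high light was 0 without heat 2, heat 3, high light 1 or high light 2. Of xylem markers 1 of 5 were higher in heat and 0 higher in high light (median -0.07), XCP2 at 1.27 ± 0.26 (adjusted p = 0.00182), with sums of 2513 to 4029 and 1856 to 2447. Of 4 flower markers 1 was tested and not called, and no marker of the 5 lists was at 0 in a whole group. The part of cell types in the results was not tested. MYB60 was no longer called without heat 1, heat 2, high light 1, high light 2 or high light 3 and with no filter (-1.03 to -0.68, adjusted p = 0.0574 to 0.147) and SULTR2;1 without heat 2 or high light 1 and with upper-quartile scaling (0.50 to 0.60, adjusted p = 0.0592 to 0.145). PDF2 was no longer called without heat 2, heat 3, high light 1 or high light 2 (-0.67 to -0.58, adjusted p = 0.0665 to 0.093).

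Transcripts of the mitochondrial genome were higher in heat for all 39 that passed the filter on low counts, of 152 loci. Their median change was 3.91, and 24.5% of all genes were higher in heat. The filter used the mean over all 12 libraries, and a locus could pass it through heat and the combination alone. The agreement of all 39 is therefore no test. The transcripts took 0.0756% to 0.120% of reads in heat against 0.00596% to 0.00666% in high light. Their share was 0.00500% to 0.0135% in control and 0.0577% to 0.115% in the combination. The libraries were poly(A) selected, and organelle transcripts are mostly not polyadenylated. Of 79 tested among 133 loci of the chloroplast genome, 18 were higher in heat, 5 were higher in high light and 56 were not called. The share higher in heat was near the 24.5% of all genes, and that higher in high light was below the 24.9% of all genes. The 133 loci took 0.0490% to 0.0588% of reads in heat and 0.0176% to 0.0322% in high light. These sets were formed by locus name after their values were seen.

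The control and the combination place each difference. This is a description over genes chosen for their difference between the 2 stresses. Of the 4738 genes higher in heat, the control mean was at or below high light for 1455 (30.7%), at or above heat for 802 (16.9%) and between the stresses for the rest. Of the 4813 genes higher in high light, it was at or above high light for 1436 (29.8%) and at or below heat for 988. For the genes higher in heat, the combination lay at or above heat for 1735 (36.6%) and at or below high light for 994 (21.0%). For those higher in high light, it lay at or above high light for 1088 (22.6%) and at or below heat for 1443 (30.0%). These places rest on the deposited scaling. Its size factors were 0.535 to 0.605 in the combination, 1.05 to 1.53 in heat and 1.13 to 1.31 in high light. The summed antenna count, for example, was above control in the combination, but its share of reads was below control. Places under another scaling were not tested. PAP1, for example, was at 266, 129 and 63.6 in the combination and TT7 at a mean of 35.5 ± 15.9, both below their high light libraries, and HSP101 was at 463511, 1461293 and 997091, above all 3 heat libraries.

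**Figure D5:**
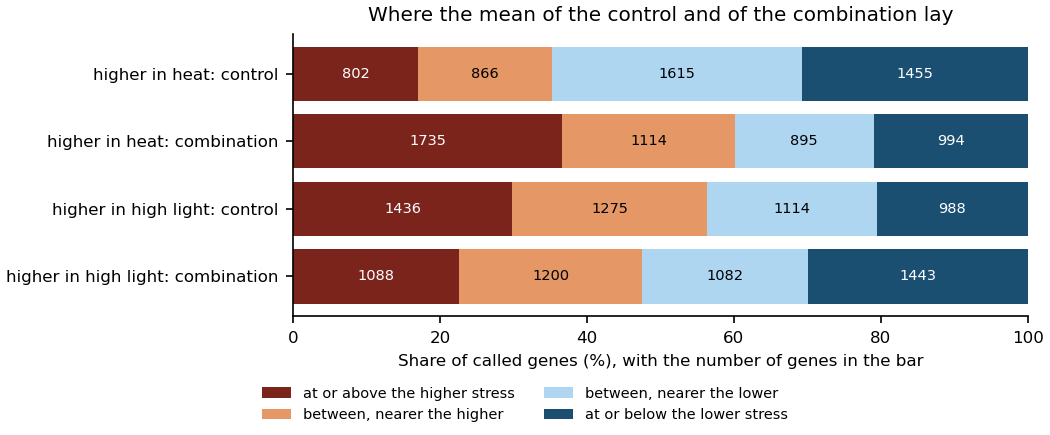
Share (%) of the genes higher in heat (upper bars, 4738 genes) and higher in high light (lower bars, 4813 genes) whose control or combination mean, on the log2 scale, lay at or above the higher stress, between the stresses, or at or below the lower stress, with gene numbers in the bars. The largest share for control among genes higher in heat is between the stresses nearer to high light (1615 genes), and for the combination it is at or above heat (1735 genes).

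Some genes stood far from control in both stresses while their heat minus high light interval stayed within 2-fold. They were chosen after their values were seen. Plastid HSP90.5 (AT2G04030) was at 54138, 69098 and 40018 in heat and at 56804, 75060.1 and 51950.3 in high light (interval -0.72 to 0.35), against 7974, 9168 and 7365 in control. FD1 (AT1G10960), a leaf ferredoxin, was at 14964, 21045 and 24077 in heat and at 13699, 22839.98 and 19279 in high light (interval -0.40 to 0.62), against 3456, 2726 and 2884. APR2 (AT1G62180), which reduces sulfate, was at 1027, 958 and 3607 in heat and at 1366, 1942 and 1416 in high light (interval -0.86 to 0.80), against 277, 316 and 347, with heat 3 far above heat 1 and 2. Below control were BGAL4, a beta-galactosidase, with 26.9 ± 6.83 and 28.6 ± 6.69 against 418 ± 80.3, and the sugar transporter STP14 with 86.4 ± 31.3 and 84.8 ± 26.6 against 771 ± 67.3 (heat, high light and control, SD, n = 3). APR2 passed without heat 3 (-0.65, adjusted p = 0.0129).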

How the data were processed

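Poly(A)-enriched RNA of leaves was sequenced, 3 libraries for each of 4 groups. The deposited table holds 1 signal value per gene and library: the authors' read counts divided by a size factor per library. The submitters' processing notes name FastQC 0.11.7, STAR 2.4.0.1, DESeq2 1.20.0 and TAIR10. The authors' strand setting is not given in the sources used here. Whole reads were recovered for 100% of the non-zero values within 0.001 of a whole number, which gave the depths and the count tests.

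Values were tested as log2(normalised count + 1), for genes with a mean of at least 10, by limma 3.58.1 in R 4.3.3 with a mean-dependent variance and 1 mean per group over all 12 libraries. The contrast was heat minus high light, two-sided, with Benjamini-Hochberg adjustment over 19309 genes and a threshold of 0.05. An exact permutation test of 3 against 3 libraries cannot go under 0.1 and was not used. Alternatives were edgeR 4.0.16 and DESeq2 1.42.0 on the recovered reads, a replicate block, other scalings, pseudocounts and filters, and each of the 6 libraries left out.

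Gene names and promoter windows came from RefSeq (TAIR10.1), where 32548 of the 32833 loci were matched. The 43 gene lists named 581 genes, of which 565 were matched and 543 tested. Members and lists were chosen with earlier results of these data known. Genes were named by rule: the 10 largest changes each way with no overlap and 50 or more normalised reads on average in the higher group, the 3 largest called changes of each list, and 15 fixed genes. Other genes named were chosen after their values were seen.

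The labels number the libraries 1 to 3 in each group. Deviations from the group mean correlated over genes at 0.147, 0.152 and 0.151 between same-numbered heat and high light libraries, and at -0.144 to -0.018 between others. The 3 deviations of a group sum to 0, so positive values for same numbers go with negative values for the others. The main test did not pair the libraries, and a pairing by number was used only in the replicate block. The labels do not say what a number stands for, so whether the numbers pair the libraries is not known.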

Additional observations from a re-analysis of the deposited data

How the results depend on the processing

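Under all 17 alternatives, the count of genes higher in heat than in high light lay between 3654 and 5286, and that of genes higher in high light than in heat between 3828 and 5380. Each was within 1.5 times of 4738 and 4813, and no gene was called in the opposite direction. At least 78.0% of the calls were shared, the lowest share being without high light 1. Without 1 library, the counts ran from 3654 to 5053 in heat and from 3828 to 5103 in high light. Upper-quartile scaling lowered the median change by 0.098 and gave 4165 and 5380. The recovered reads gave 4972 and 4725 in edgeR and 5286 and 5015 in DESeq2. CAT2 alone turned direction among the genes named by rule: it was -0.048 without heat 3 and 1.36 without heat 1. A pseudocount of 10 moved low genes, SEN1 from 5.04 to 2.48 and MYB11 from -7.69 to -4.89, and edgeR moved HSP70B from 6.62 to 9.23. With the replicate block, 4610 genes were higher in heat and 4728 in high light. Of the 543 listed genes, the block ended 6 calls and made 17. Among the genes named by rule it changed the call of HSFA2, which passed, and of APX1, which did not, and no other. The cause was not tested. Counting error bears on genes with few reads in a group, such as PAP2, MYB11, F3H and SEN1.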
